A study of Mus musculus with 6 samples.

Results

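The G1 cyclins and the proteins they act with were followed in N2a cells after knockdown of *Npm1*. The set holds 10 genes of the 26913 rows in the deposited tables: the D-type cyclins *Ccnd1*, *Ccnd2* and *Ccnd3*, their kinases *Cdk4* and *Cdk6*, the E-type cyclins *Ccne1* and *Ccne2*, their kinase *Cdk2*, the inhibitor *Cdkn1b* and the substrate *Rb1*. They were chosen by symbol and function, and all 10 were found. N2a (Neuro-2a) is an established mouse neuroblastoma line, labelled WT in every sample. The cells received either pLKO.1-shCTR, a non-targeting short hairpin RNA plasmid (CTR, 3 libraries), or pLKO.1-shNpm1 (NPM1 KD, 3 libraries), and RNA was taken 3 days later. Puromycin selection from the day after transfection is given for the NPM1 KD experiments, and whether CTR cells were selected in the same way is not stated for these libraries. The study's methods describe selection with both plasmids for its chromatin experiments. A single hairpin against *Npm1* was used, so an effect of that hairpin on other transcripts cannot be told apart from loss of *Npm1*. The descriptions give 3 biological replicates per condition in one place and 2 in another. The spread between these libraries, on which the p-values draw, may thus be partly technical.

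Progress through G1 is driven by cyclin-dependent kinases, which are active only when bound to a cyclin. D-type cyclins are induced by growth signals and pair with CDK4 or CDK6, and these complexes begin the phosphorylation of the retinoblastoma protein, Rb. Phosphorylated Rb releases E2F transcription factors, which turn on the E-type cyclins and the genes of DNA replication. Cyclin E with CDK2 then completes the phosphorylation of Rb, while p27, the product of *Cdkn1b*, binds and inhibits cyclin E and CDK2. Much of this control acts on protein stability and phosphorylation, which RNA levels do not show.

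*Npm1* itself (ENSMUSG00000057113), which encodes the nucleolar chaperone nucleophosmin 1, stood at 10 in each CTR library and at 8 in each NPM1 KD library, a difference of −2 ± 0.33 (SE) with an adjusted p of 3.23e-06. These are regularized log (rlog) values, log2-scale scores that correct for library size and draw the values of weakly sequenced genes together. The deposited values of 1 or more in size are whole numbers, so rounding alone could shift a difference between group means by up to 1. Differences are NPM1 KD minus CTR throughout, and adjusted p-values come from limma with Benjamini-Hochberg adjustment over all genes in the fit. On rlog values, limma replaced the spread of each gene by that of genes at a similar level, after raising it for rounding. *Npm1*, with an SD of 0 in each group, and *Ccnd1*, with 0.58, thus both had an SE of 0.33. The NPM1 KD libraries were shallower, with relative depths of 0.784 to 0.961 against 1.11 to 1.30 in CTR. Of 15 neuroblastoma markers, 2 had no read, and the summed rlog values of the list lay between 67.3 and 69.4 in CTR and between 59.4 and 62.5 in NPM1 KD. *Chga* and *Chgb*, 2 of the 9 markers tested on rlog values, fell, with differences of −1.33 and −1.67 and adjusted p-values of 0.026 and 0.0011. Of 12 markers of other cell types, 6 had no read, none reached the level needed for the test on rlog values, and the sums were −3.54 to −2.58 in CTR and −3.92 to −2.77 in NPM1 KD. In these values *Gfap*, with no read, stands at 0 and *Col1a1*, with 1 read, at −2. The sums of this list thus do not measure the amount of its transcripts. On reads, *Pecam1*, an adhesion molecule of endothelial cells, had 19 reads in CTR and 0 in NPM1 KD (unadjusted p of 0.00106 and adjusted p of 0.105 in limma), and *Mbp*, a myelin protein gene, had 10 and 3. Both reached the minimum of 10 reads for this fit through CTR, so the p-values are not separate support for a fall. The other markers with reads stayed under that minimum, and *Epcam* went the other way, with 0 reads in CTR and 2 in NPM1 KD. The part of these differences in the values of the G1 genes was not tested, and in bulk RNA fewer cells of a kind cannot be told apart from less RNA per cell.

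None of the 10 G1 genes passed the threshold of 0.05 on the adjusted p. *Ccnd1*, *Cdk4*, *Ccne1*, *Cdk2* and *Cdkn1b* reached log2 of 10 in their mean rlog and were tested on rlog values, and 0 of these 5 passed, also before adjustment. Across the 5752 genes of that test, 28 (0.487%) passed, of which 4 (0.0695%) rose and 24 (0.417%) fell, and 813 (14.1%) had an unadjusted p under 0.05, with 8.07% of all genes on the lower side. *Ccnd3*, *Ccne2* and *Rb1* lay below that level and were tested on whole sequencing reads. Again 0 of 3 passed, and 1 of 3, *Rb1*, had an unadjusted p under 0.05 in limma. *Rb1* reached the minimum of reads for this fit through CTR, so its p-value is not separate support for a fall. Of the 4863 genes with few reads, 0 (0%, with 0% higher and 0% lower) passed, and 653 (13.4%) had an unadjusted p under 0.05, of which 470 (9.66% of all) were lower in NPM1 KD. *Ccnd2* and *Cdk6* had fewer than 10 reads in all 6 libraries together and were not tested.

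**Figure D1:**
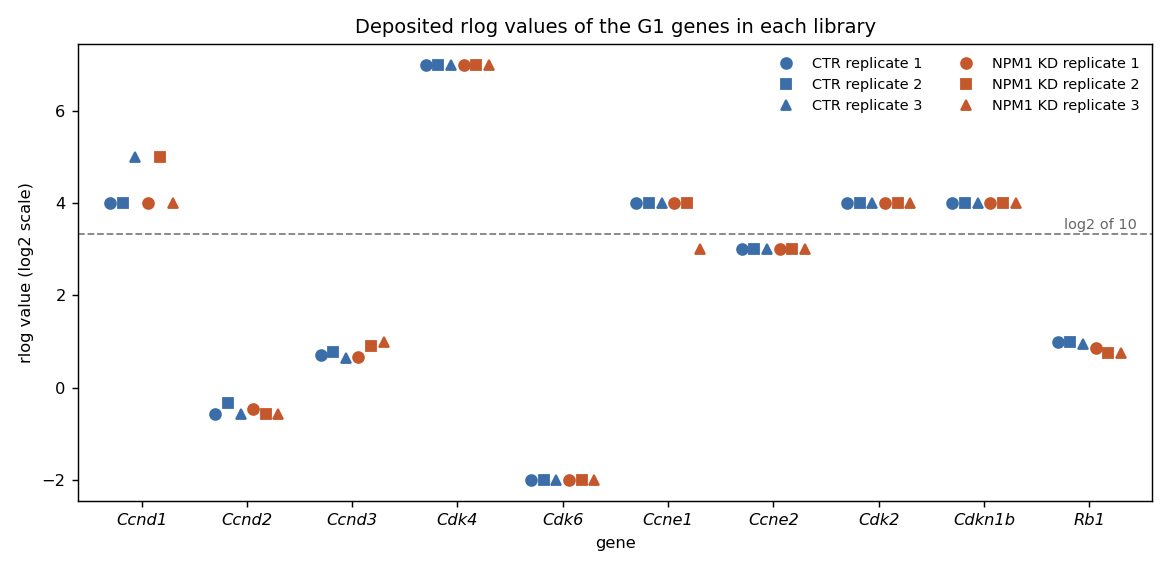
Deposited rlog values (log2 scale, vertical axis) of the 10 G1 genes in each of the 3 CTR and 3 NPM1 KD libraries, with the level needed for the test on rlog values, log2 of 10, as a dashed line. *Cdk4* sits at 7 in all 6 libraries, and the values of *Ccnd2*, *Ccnd3*, *Rb1* and *Cdk6* lie at or below 1.

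The D-type cyclins are the link between growth signals and the cycle. *Ccnd1* (ENSMUSG00000070348), which encodes cyclin D1, had rlog values of 4, 4 and 5 in CTR replicates 1, 2 and 3 and of 4, 5 and 4 in NPM1 KD replicates 1, 2 and 3. The group means were equal at 4.33 ± 0.58 (SD, n = 3), and the groups overlapped. The difference was 0 ± 0.33 (SE), with a 95% interval from −0.65 to 0.65 and an adjusted p of 1. The authors' mean normalized count of *Ccnd1* over the 6 libraries was 22.0. *LTO1*, which overlaps exons of *Ccnd1* on the opposite strand, had 9.64. Whether the counting used strand is not given in the sources used here, so reads of such a pair cannot be told apart.

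The reads behind *Ccnd1* could not be settled. Because the mean normalized count of a gene is the sum of its whole reads divided by the depths, most low counts can be written in exactly one way. For *Ccnd1* there were 56 combinations, of which 3 put the libraries in the order of their rlog values, with ratios of the mean scaled reads, NPM1 KD to CTR, of 0.841, 0.878 and 1.41. The combination with 0.841 put 0 reads in NPM1 KD replicate 3, and that with 1.41 put 1 read in CTR replicate 2. Both libraries had an rlog value of 4. Only the order of the libraries was compared, and whether so few reads could give that value was not tested. The direction of a small difference in *Ccnd1* was thus not settled.

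*Ccnd2* (ENSMUSG00000000184), which encodes cyclin D2, had 5 reads in all. CTR replicate 2 held 4 of them and NPM1 KD replicate 1 held 1, with 0 in each of the other libraries. Scaled by depth, the means were 1.02 ± 1.77 in CTR and 0.425 ± 0.737 in NPM1 KD (SD, n = 3). The groups overlapped. Dividing the summed reads of each group by its summed depth, which weights deeper libraries more than the mean does, gave a pooled ratio of NPM1 KD to CTR of 0.355 with a 95% counting interval from 0.00721 to 3.59. A count of 0 in a library allows up to 3 reads, so absence of *Ccnd2* was not shown in any of them. Its rlog values, −0.57, −0.32 and −0.57 in CTR against −0.47, −0.56 and −0.57 in NPM1 KD, followed the same 2 libraries.

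*Ccnd3* (ENSMUSG00000034165), which encodes cyclin D3, had 11 reads. The CTR libraries held 1, 2 and 0 reads and the NPM1 KD libraries 0, 3 and 5. Scaled by depth these were 0.81, 1.54 and 0 in CTR against 0, 3.6 and 5.21 in NPM1 KD. NPM1 KD replicates 2 and 3 were above every CTR library and NPM1 KD replicate 1 was not, so the groups overlapped. The fitted difference was 1.05 ± 1.07 (SE), with a 95% interval from −1.17 to 3.26 and an adjusted p of 0.716 in limma. Without NPM1 KD replicate 1 it was 2.14 and without NPM1 KD replicate 3 it was 0.38, and neither passed the threshold. The pooled ratio was 3.79, with a counting interval from 0.909 to 22.2. *Ccnd3* reached the minimum of 10 reads for this fit mostly through NPM1 KD, with 8 reads against 3 in CTR. Its fitted differences, interval and ratio are thus not separate support for a rise. *Bysl*, on the opposite strand, overlaps exons of *Ccnd3* and had a mean normalized count of 17.1.

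**Figure D2:**
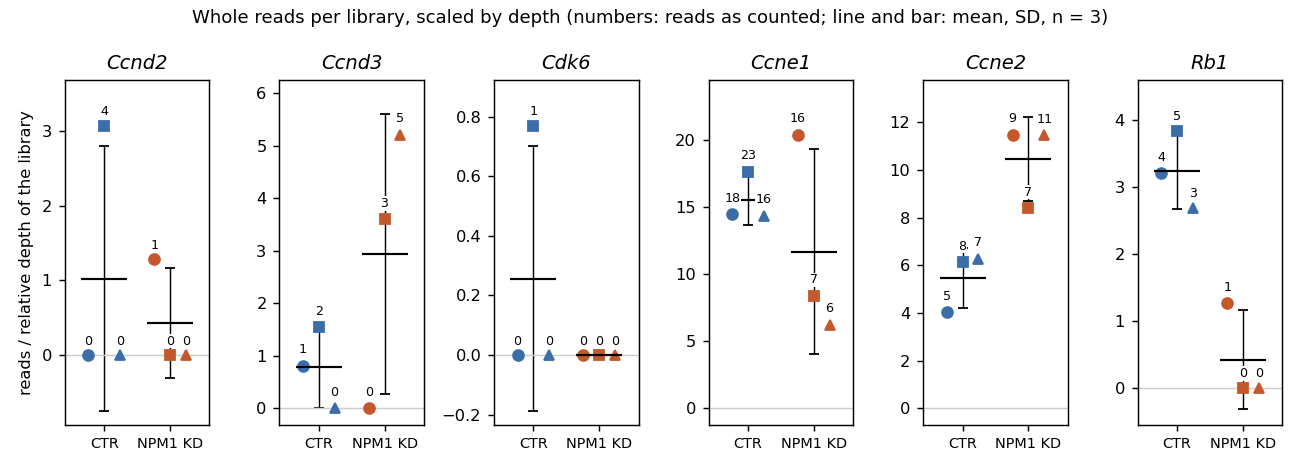
Whole reads divided by the relative depth of the library (vertical axis, a separate linear scale for each gene) for the 6 genes whose reads were worked out, with the reads as counted beside each point; circles, squares and triangles are replicates 1, 2 and 3, and lines and bars are the mean and SD (n = 3). The NPM1 KD libraries of *Ccne2* lie between 8.41 and 11.5, above the CTR libraries, and those of *Rb1* between 0 and 1.28, below them.

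The partner kinases of the D-type cyclins differed in how well they were measured. *Cdk4* (ENSMUSG00000006728), the kinase that D-type cyclins activate, stood at an rlog of 7 in all 6 libraries, with a mean normalized count of 141. The difference was 0 ± 0.35 (SE), with a 95% interval from −0.68 to 0.68 and an adjusted p of 1. No library stood apart from the others in these rounded values, which limit a change in *Cdk4* only to what rounding and the interval allow. *Tspan31*, which overlaps *Cdk4* on the opposite strand, had a mean normalized count of 1.41. That pattern was shared by many genes, since 2310 of the 5752 genes tested (40.2%) had 1 value in all 6 libraries. *Cdk6* (ENSMUSG00000040274), the other kinase of the D-type cyclins, had 1 read, in CTR replicate 2, and an rlog value of −2 in each library. With 0 reads in the 3 NPM1 KD libraries and 1 in CTR, no comparison could be made for *Cdk6* at this depth.

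The E-type cyclins, which rise late in G1, were measured on both scales. *Ccne1* (ENSMUSG00000002068), which encodes cyclin E1, had an rlog value of 4 in every library except NPM1 KD replicate 3, where it was 3. The difference was −0.33 ± 0.36 (SE), with a 95% interval from −1.04 to 0.37 and an adjusted p of 0.713, and it was 0 without NPM1 KD replicate 3. One of 3 combinations of whole reads kept the order of the rlog values, and it gave 18, 23 and 16 reads in CTR and 16, 7 and 6 in NPM1 KD. Scaled by depth, *Ccne1* stood at 14.5, 17.7 and 14.4 in CTR against 20.4, 8.41 and 6.25 in NPM1 KD. NPM1 KD replicate 1 was the highest of all 6 libraries and NPM1 KD replicates 2 and 3 were the lowest. The means were 15.5 ± 1.87 in CTR and 11.7 ± 7.64 in NPM1 KD (SD, n = 3; two-sided exact permutation test, p = 0.4). The pooled ratio was 0.722, with a counting interval from 0.445 to 1.15, which leaves out the spread between replicates. With NPM1 KD libraries both above and below every CTR library, a difference larger than that spread was not seen.

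*Ccne2* (ENSMUSG00000028212), which encodes cyclin E2, had an rlog value of 3 in all 6 libraries, and its 47 reads showed more. The CTR libraries held 5, 8 and 7 reads and the NPM1 KD libraries 9, 7 and 11. Scaled by depth these were 4.03, 6.14 and 6.28 in CTR against 11.5, 8.41 and 11.5 in NPM1 KD. Every NPM1 KD library was above every CTR library. The means were 5.48 ± 1.26 and 10.4 ± 1.77 (SD, n = 3), and the pooled ratio was 1.92 with a counting interval from 1.04 to 3.6. That interval covers counting error only and leaves out the spread between libraries. The fitted difference was 0.88 ± 0.43 (SE), with a 95% interval from −0.01 to 1.77, an unadjusted p of 0.0517 and an adjusted p of 0.373 in limma. The two-sided exact permutation test gave p = 0.1, the smallest that 3 against 3 libraries allow. *Ccne2* thus did not pass the test. Together with *Rb1* it was 1 of 2 among the 3 G1 genes tested on reads whose groups did not overlap, a pattern seen in 928 of the 4863 genes with few reads (19.1%), with 6.7% higher and 12.4% lower in NPM1 KD. *Ints8*, which overlaps *Ccne2* on the opposite strand, had a mean normalized count of 3.05.

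*Cdk2* (ENSMUSG00000025358), the kinase of the E-type cyclins, had an rlog value of 4 in each library and a mean normalized count of 15.4. *Cdkn1b* (ENSMUSG00000003031), which encodes the inhibitor p27, also stood at 4 in each library, with a mean normalized count of 18.1. For both, the difference was 0 ± 0.35 (SE), with a 95% interval from −0.68 to 0.68 and an adjusted p of 1. Their mean normalized counts could be written as 10 and 21 combinations of whole reads that kept the rlog order, so their reads were not assigned to libraries. For *Cdk2* and *Cdkn1b* the tables therefore limit a change only to what rounding and the interval allow.

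*Rb1* (ENSMUSG00000022105), the retinoblastoma gene and the substrate on which the G1 kinases converge, was sparsely sequenced, with 13 reads. The CTR libraries held 4, 5 and 3 reads and the NPM1 KD libraries 1, 0 and 0. Scaled by depth these were 3.22, 3.84 and 2.69 in CTR against 1.28, 0 and 0 in NPM1 KD. Each NPM1 KD library was below each CTR library. The means were 3.25 ± 0.574 and 0.425 ± 0.737 (SD, n = 3), and the pooled ratio was 0.118 with a counting interval from 0.00277 to 0.8. Here too the counting interval leaves out the spread between libraries. The rlog values kept the same order, at 0.99, 1 and 0.95 in the CTR libraries against 0.85, 0.76 and 0.75 after NPM1 KD.

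The fitted difference of *Rb1* was −2.29 ± 0.93 (SE), with a 95% interval from −4.22 to −0.36, an unadjusted p of 0.0225 and an adjusted p of 0.298 in limma, so *Rb1* did not pass. The two-sided exact permutation test gave p = 0.1, again the smallest possible. *Rb1* reached the minimum of reads for this fit through CTR, with 12 reads against 1 in NPM1 KD. Its p-values, its interval and the gap between its groups are thus not separate support for a fall. Genes with few reads leaned towards lower values in NPM1 KD, with a median difference of −0.18. After each library was shifted by its typical deviation, the difference was −2.12 for *Rb1*, 1.05 for *Ccne2* and 1.21 for *Ccnd3*. *Lpar6* and *Rcbtb2*, on the opposite strand, overlap exons of *Rb1* and had mean normalized counts of 1.07 and 2.32.

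**Figure D3:**
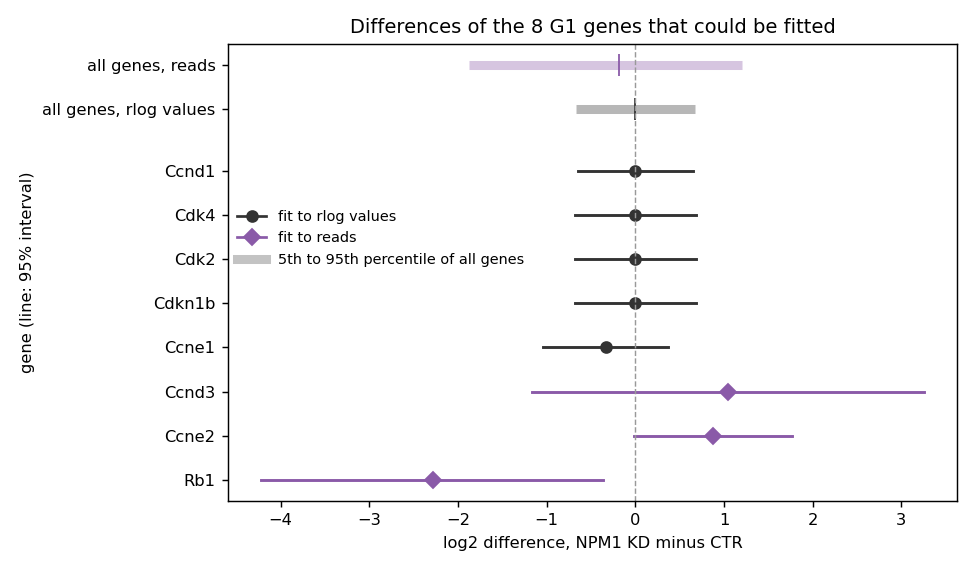
Fitted log2 differences, NPM1 KD minus CTR (horizontal axis), with 95% intervals for the 8 G1 genes that could be tested, circles for rlog values and diamonds for reads, and the 5th to 95th percentile of all genes in each fit as shaded bars with the median marked. All intervals except that of *Rb1* include 0, and the bars run from −0.67 to 0.67 for rlog values and from −1.88 to 1.2 for reads. *Rb1* reached the minimum of reads for its fit through CTR, so its interval is not separate support for a fall. *Ccnd3* reached that minimum mostly through NPM1 KD, so its interval is not separate support for a rise.

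Among the other genes of the 5752 tested, those with the same 6 deviations from the CTR mean as a member were counted. For *Ccnd1* there were 24, of which 8 had the same 6 values, among them *Gm10874*, *Isy1* and *Mapk6*, the first by alphabet. For *Ccne1* there were 79. For *Cdk4*, *Cdk2* and *Cdkn1b* there were 2309, which is every other gene with 1 value throughout. The likeness rests on whole numbers in 6 libraries and separates few genes.

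The wider G1/S network was followed through a list of 45 genes (other CDK inhibitors, pocket proteins, E2F and DP factors, the CDK-activating kinase, ubiquitin ligases of the pathway, Myc factors and the DREAM complex). Of these, 25 were tested on rlog values and 15 on reads, 4 had fewer than 10 reads, and 1, *Lin54*, was not among the rows used here. On rlog values 0 of 25 passed, with 3 at an unadjusted p under 0.05 in limma, and 4 had higher, 4 lower and 17 equal group means. Over all 5752 genes of that test, 14.1% had an unadjusted p under 0.05 in limma. Of these genes, 1416 were higher, 1574 lower and 2762 equal, so the count of 3 did not set the list apart. On reads 0 of 15 passed, with 0 at an unadjusted p under 0.05 in limma, and 6 were higher and 9 lower. Over all 4863 genes tested on reads, 13.4% had an unadjusted p under 0.05 in limma, and 2013 were higher and 2850 lower. The median differences of the list were 0 on rlog values and −0.23 on reads, against 0 and −0.18 over all genes of each test.

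The genes of the network with the largest test statistics were a transcription factor of the E2F family and both partners of a Myc dimer. *E2f4*, an E2F that mostly acts as a repressor with pocket proteins, had rlog values of 5, 4 and 4 in CTR and 5 in each NPM1 KD library. *Max*, the dimerization partner of Myc proteins, had 4 in each CTR library and 5, 5 and 4 in NPM1 KD. *Mycn*, the Myc family member best known from neuroblastoma, had 5, 4 and 5 in CTR and 4 in each NPM1 KD library. In all 3 genes the groups shared a value. The differences were 0.67 ± 0.33 for *E2f4* and *Max* and −0.67 ± 0.33 (SE) for *Mycn*, each with an adjusted p of 0.33.

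Downstream of Rb, 30 E2F target and S phase entry genes were examined, among them replication licensing factors, nucleotide synthesis enzymes and DNA polymerase subunits. On rlog values 0 of 22 passed, with 2 at an unadjusted p under 0.05 in limma, and 2 had higher, 10 lower and 10 equal group means. Over all 5752 genes, 813 (14.1%) had an unadjusted p under 0.05 in limma. Of the 5752, 1416 were higher, 1574 lower and 2762 equal. On reads 0 of 4 passed, with 0 at an unadjusted p under 0.05 and with 2 higher and 2 lower, and the other 4 genes had fewer than 10 reads. The median difference was 0 on rlog values, as over all genes, and the mean was −0.20 against −0.02 over all genes. *Tyms*, which makes thymidylate, had rlog values of 5, 6 and 6 in CTR and 5 in each NPM1 KD library. *Uhrf1*, which couples DNA methylation to replication, had 5, 4 and 5 in CTR and 4 in each NPM1 KD library. *Tk1* and *Dut*, a kinase and a pyrophosphatase of thymidine nucleotide supply, each had 7 in every CTR library and 6, 6 and 7 in NPM1 KD. In these 4 genes the groups shared a value, and each difference was −0.67 with an SE of 0.33 (*Tyms*, *Uhrf1*) or 0.35 (*Tk1*, *Dut*) and an adjusted p of 0.33. *Mybl2*, a Myb family factor of the cell cycle, was tested on reads, with 26 reads in CTR and 9 in NPM1 KD, a difference of −1.18 ± 0.61 (SE) and an adjusted p of 0.396 in limma. Its rlog values were 2, 2 and 3 in CTR and 2 in each NPM1 KD library. Over the 5752 genes, 322 (5.6%) had groups that did not overlap, 2.19% higher and 3.41% lower in NPM1 KD, and none of the 5 G1 genes tested on rlog values was among them.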

How the data were processed

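Long-read cDNA libraries (PCR barcoding kit, GridION) of N2a cells were analysed, 3 CTR and 3 NPM1 KD. The authors deposited an rlog score per gene and library and a mean normalized count over the 6 libraries. Their own fold change and p-value columns were not used. The submitters' processing notes name minimap2, featureCounts, DESeq2 and GRCm39. The annotation and strand setting are not given in the sources used here. Of 26913 rows, 257 that repeated a gene ID were dropped.

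Genes with a mean rlog of log2 of 10 or more were fitted with limma 3.58.1 in R 4.3.3 (intensity trend, two-sided, within-group variances raised to at least 1/12, the variance rounding adds). Total reads are not in the tables. Relative depths were read from genes with a single read and placed to libraries by the rlog decimals of 1788 genes (mean correlation 0.998, next best placing 0.640). Whole reads then followed uniquely from the mean normalized count for 8799 of 8804 genes with a mean under 10 (99.9%, tolerance 1e-09). Those with at least 10 reads were fitted with limma on log2 of depth-scaled reads plus 0.5, which understates changes of low genes. This step was chosen after the data were seen. Scripts were tested on simulated data. Ratios have exact 95% binomial intervals, which cover counting error only, since PCR copies are not independent molecules.

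The members, lists and tests were chosen with earlier results of these data known. From the network and S phase entry lists, genes past the threshold and the 3 with the largest test statistics on rlog values were named, with ties kept. *Mybl2*, whose statistic on reads was larger than the last of these, and the named cell type markers were added after their values were seen. Overlapping genes were taken by name from GENCODE M21, which is of another build. Other scalings, filters, pseudocounts, variance limits, a replicate block and leaving out each library were tried.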

Additional observations from a re-analysis of the deposited data

How the results depend on the processing

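No G1 gene, network gene or S phase entry gene passed the threshold under any alternative run, with either kind of value. Signs were compared for *Npm1*, the 8 G1 genes tested and the 7 genes named from rlog values, and none that was above or below 0 reversed. Over all genes, the number passing on rlog values went from 28 to 301 with no limit on the variance, 8 with a limit of 1/6, 11 with no filter and 350 with no intensity trend, and leaving out 1 library gave 5 to 10. On reads it went from 0 to 47 with a pseudocount of 1, 2 with at least 5 reads and 72 with no filter, and leaving out 1 library gave 0 to 11. The causes were not tested. All alternatives on reads were chosen after the data were seen.

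With the replicate block, 8 genes passed on rlog values and 35 on reads. The replicate numbers are shared in name only: deviations of same-numbered libraries correlated at 0.009, 0.001 and 0.03 on rlog values and at 0.02, 0.003 and 0.031 on reads, and not every library correlated best with its own number.

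Leaving out 1 library moved *Ccnd1* between −0.33 and 0.33, *Ccne2* between 0.69 and 1.02 and *Rb1* between −2.90 and −1.98. The lowest adjusted p of *Rb1* was 0.18, with no intensity trend, and its highest 0.592. Depth limits *Ccnd2*, *Ccnd3*, *Cdk6* and *Rb1* to a few reads, and rounding limits *Cdk4*, *Cdk2* and *Cdkn1b*.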
